A study of Mus musculus with 6 samples.

Results

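The replication-dependent histone genes are short, mostly single-exon genes that lie in clusters and encode the linker histone H1 and the core histones H2A, H2B, H3 and H4. All gene symbols that begin with Hist1h, Hist2h, Hist3h or Hist4h were taken, which gave 67 of the 31028 genes in the RNA gene list and 20 of the 8269 genes in the chromatin accessibility gene lists. The choice used names only and no measured value. In mouse build mm10 the 54 Hist1 genes lie within chr13:21715763-23934851, the 10 Hist2 genes within chr3:96219865-96270132, the 2 Hist3 genes within chr11:58948920-58956830, and the single Hist4 gene at chr6:136801553-136804415 (GENCODE M21 gene models). By class there are 6 genes for H1, 18 for H2A, 18 for H2B, 12 for H3 and 13 for H4.

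The study compared early mouse pancreas of C57BL/6 embryos that were Ptf1a+/+ (wild type) with Ptf1aenh-delta/enh-delta embryos, in which both copies of an enhancer of Ptf1a are deleted. Ptf1a is a transcription factor gene needed to form the pancreas. Single-cell RNA and single-nucleus accessibility were profiled at embryonic day 10.5 (E10.5) in pools of 5 to 9 embryos of each genotype, and accessibility alone at E13.5 in pools of 6 embryos. Each of the 6 groups is 1 library, so no difference below has a replicate check, and no test across samples was possible. The cell names mark the wild-type E13.5 library July and the enhancer-deleted one September, and at that stage the genotype cannot be told apart from the month.

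Most histone protein is needed while DNA is copied, and the replication-dependent genes are transcribed and their messages kept stable mainly in S phase. Their mRNAs are the known exception to polyadenylation in animal cells: the 3′ end is a short stem-loop, bound by the stem-loop binding protein SLBP and cut by a dedicated machinery that includes U7 small nuclear RNA. Some of these genes also make longer, polyadenylated messages, which are known from cells that have left the cell cycle. The RNA libraries were primed on poly(A), so they can count only the histone RNA that such priming reaches, and the capture of these messages was not tested here.

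The stem-loop is shown first because it sets these genes apart from nearly all others. A perfect 6-base-pair stem around a 4-base loop was found within 150 bases after the stop codon in 65 of the 67 genes, the exceptions being Hist2h2be and Hist1h2an. In the lines below, capitals mark the stem and lower case the loop, on the mRNA strand of mm10, written with T for U.
Hist1h2ap, chr13:21833029-21833044, minus strand: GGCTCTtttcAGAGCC
Hist2h2ac: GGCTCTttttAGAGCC
Hist1h4d, chr13:23581950-23581965, plus strand: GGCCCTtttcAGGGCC
Hist1h4i: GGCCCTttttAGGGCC
Hist1h4j: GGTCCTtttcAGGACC
The form shown for Hist1h2ap was shared by 41 genes, among them Hist1h1b (chr13:21779837-21779852, minus strand), Hist1h2ae and Hist3h2ba (chr11:58949349-58949364, plus strand), and by no H4 gene. The form of Hist1h4d was found in 8 genes, all of them for H4, that of Hist1h4i in 2 H4 genes and that of Hist1h4j in 2 H4 genes. No H4 gene carried the GGCTCT stem that the other classes share. In 14 genes a GENCODE transcript had AATAAA, the common polyadenylation signal, within its last 50 bases: Hist2h2be, Hist2h3c1, Hist2h4, Hist4h4, Hist3h2ba, Hist3h2a, Hist1h4j, Hist1h2bp, Hist1h2bq, Hist1h2br, Hist1h2ae, Hist1h1t, Hist1h1c and Hist1h4a.

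The wild-type RNA library held 1104 cell barcodes and 4665222 UMIs (counted mRNA molecules) and the enhancer-deleted library 815 barcodes and 4360076 UMIs. Values below are from the 451 wild-type and 369 enhancer-deleted cells with at least 1000 genes detected, unless all barcodes are named. Ptf1a had 142 UMIs in 88 wild-type cells and 0 in the enhancer-deleted cells. The cells fell into 4 clusters, formed without the histone genes and without lists of S and G2/M phase genes: an epithelium-like one (8 of 11 markers raised), a mesenchyme-like one (10 of 10), an endocrine-like one (14 of 14), and cluster 1, which stays unnamed and was shallow, with a median of 2616 UMIs per cell. Xist, the RNA of the inactive X chromosome, was higher in the enhancer-deleted library by 2.84 on the log2 scale, so the 2 pools differed in that RNA as well. Only 1 barcode was shared by the 2 libraries.

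Histone RNA was dominated by a few genes. Of the 67 genes, 63 had at least 1 UMI, and the 12 highest held 85.2% of the 16826 histone UMIs over all barcodes. The top gene was Hist1h2ap, an H2A gene, with 30.7% of them. Its level was 865 UMIs per 1000000 UMIs counted (CPM) in the wild-type and 282 in the enhancer-deleted cells. Hist1h1b, an H1 linker histone gene, stood at 337 and 185 CPM. Hist1h2ae, another H2A gene, stood at 271 and 61.1 CPM. After them came the H1 gene Hist1h1e, with 180 and 102 CPM, and the H2B gene Hist3h2ba, with 129 and 156 CPM. Hist3h2ba was the only one of these 5 that was higher in the enhancer-deleted cells. The genes known from spermatogenesis were near or at 0: Hist1h1t had 0 wild-type and 2 enhancer-deleted UMIs, and Hist1h2aa and Hist1h2ba had none, where 3 counts would have been 0.731 and 0.748 CPM. Some values are uncertain because copies are nearly identical (Hist1h2ao and Hist1h2ap, Hist1h4m and Hist1h4n, Hist1h2bq and Hist1h2br) or because genes overlap (Hist1h1e and Hist1h2be).

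**Figure D1:**
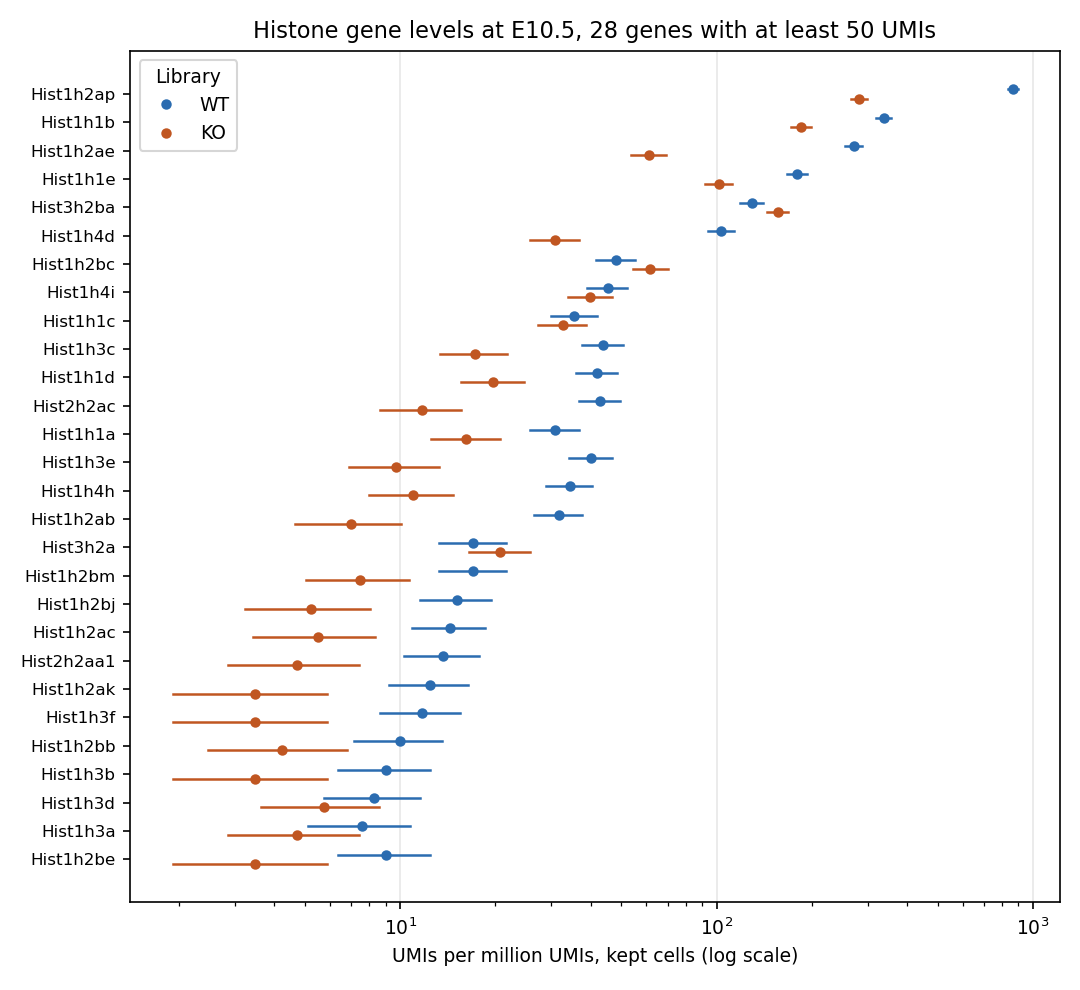
Levels of the most abundant histone genes in the wild-type and enhancer-deleted E10.5 cells, in UMIs per 1000000 on a log axis, for the 28 genes with 50 UMIs; each point is 1 gene in 1 library (WT, wild type; KO, enhancer-deleted) and the bars are 95% counting intervals. Hist1h2ap, Hist1h1b and Hist1h2ae lie well apart between the libraries, and Hist3h2ba and Hist1h2bc lie higher in the enhancer-deleted one.

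Histone RNA as a whole was lower in the enhancer-deleted cells. The summed level was 2527 CPM in the wild type (interval 2479 to 2576, 10378 UMIs) and 1161 CPM in the enhancer-deleted cells (1127 to 1194, 4656 UMIs), which is 2.18-fold lower (2.10 to 2.26). The makeup of the cells differed too: endocrine-like cells, which had the lowest sum, were 66 of the wild-type and 138 of the enhancer-deleted cells, and cluster 1, which had the highest, 157 and 56. The values over all kept cells, here and for the classes and single genes below, include that shift, and each cluster's own ratio, from 1.70 to 2.06-fold, was smaller. These intervals and all others below are at 95% and cover counting error only. Of the 63 genes with a UMI, 56 were lower in the enhancer-deleted library and 7 were higher, a count not made over all genes. The 39 genes with fewer than 50 UMIs, as a sum, stood at 102 and 44.6 CPM, 2.29-fold lower (1.92 to 2.74), so the abundant genes were not alone in this.

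Gene by gene, 28 of the 67 genes had the 50 UMIs set for a log2 ratio, computed on CPM plus 10. Among them 7 were lower by at least 1 on the log2 scale and none was higher by as much. Over all 10367 genes tested, 0.27% were lower and 0.357% higher by that size. The median log2 ratio was -0.68 for the 28 histone genes and 0.13 for all genes. With a pseudocount of 1 in place of 10, the count of 7 became 18. The shares over all genes given here are for a pseudocount of 10 only, so the 18 cannot be set against them. The ratio's counting interval lay below equal levels for 21 of the 28 genes and above them for 2. That count was not made over all genes. By sign alone, 25 of the 28 had a log2 ratio below 0. Among 10080 other genes with a known transcript length, 27.3% did.

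The classes did not share one ratio. H2A, which wraps DNA in a dimer with H2B, stood at 1294 and 404 CPM, 3.20-fold lower in the enhancer-deleted cells (3.03 to 3.39). H3 stood at 133 and 50.1 CPM, 2.66-fold lower (2.26 to 3.14). H4 stood at 207 and 90.7 CPM, 2.28-fold lower (2.02 to 2.59). These 3 core classes all lay beyond the ratio of the linker histones. H1 stood at 626 and 356 CPM, 1.76-fold lower (1.65 to 1.88). H2B stood at 268 and 260 CPM, a ratio of 1.03 (0.946 to 1.12) that includes equal levels. The H2B sum is carried largely by Hist3h2ba and Hist1h2bc, which were both higher in the enhancer-deleted cells.

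Single genes show the same spread. Hist1h2ae was lower by 4.44-fold (3.86 to 5.12; log2 ratio -1.98), Hist1h4d, an H4 gene at 103 and 30.9 CPM, by 3.34-fold (2.73 to 4.11; -1.47), and Hist1h2ap by 3.07-fold (2.87 to 3.28; -1.58). Hist2h2ac, an H2A gene at 42.9 and 11.7 CPM, was lower by 3.66-fold (2.64 to 5.16; -1.28). The other 3 genes past the log2 size of 1 were Hist1h3e (an H3 gene, 40.2 and 9.72 CPM), Hist1h4h (34.3 CPM in the wild type, 3.13-fold lower) and Hist1h2ab (31.7 and 6.98 CPM). Hist1h3c, at 43.8 and 17.2 CPM, came close with -0.98. The linker genes stopped further short: Hist1h1b had a log2 ratio of -0.83, Hist1h1e of -0.76, Hist1h1d of -0.81 and Hist1h1a of -0.64. Hist1h1c, the linker gene with an AATAAA end, stood at 35.6 and 32.7 CPM, a ratio of 1.09 (0.85 to 1.39). On the other side, Hist3h2ba had a log2 ratio of 0.26 and Hist1h2bc, at 48.2 and 61.8 CPM, of 0.30.

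The lower sum held in each group of cells that was looked at, with ratios of different size. In epithelium-like cells (127 wild-type, 81 enhancer-deleted) it was 2945 and 1523 CPM, 1.93-fold lower (1.83 to 2.04). In mesenchyme-like cells, which are not known to express Ptf1a, it was 2254 and 1235 CPM, 1.83-fold lower (1.71 to 1.95). In endocrine-like cells it was 1471 and 713 CPM, 2.06-fold lower (1.90 to 2.24). The sum was thus lower in each of these cell types. Cpa1, a top gene of the epithelium-like cluster, also had a log2 ratio of -2.74 between the genotypes in mesenchyme-like cells. Carry-over of RNA between cells was not tested. In cluster 1 the histone sum was 3368 and 1979 CPM, 1.70-fold lower (1.51 to 1.92). Among endocrine-like cells with neither an Mki67 nor a Top2a UMI it was 709 and 601 CPM, and the interval of that ratio, 0.974 to 1.42, includes equal levels. Barcodes under 1000 genes together stood at 2367 and 1350 CPM, 1.75-fold lower (1.58 to 1.95).

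Within the cell types the single genes kept their own patterns. Hist1h2ap stood at 1043 and 444 CPM in epithelium-like cells, 869 and 346 in mesenchyme-like cells and 321 and 75.7 in endocrine-like cells, wild type first. Its log2 ratio was -1.21, -1.30 and -1.95 in turn, so it was past a size of 1 in each of these, and in cluster 1 it was -1.16. Hist1h4d was past it in the same 3 cell types, with -1.26, -1.04 and -1.70, but not in cluster 1, with -0.84. Hist1h1b was not: its log2 ratio was -0.45 in epithelium-like and -0.23 in mesenchyme-like cells, and -2.38 in endocrine-like cells, where 5 cells held 150 of the 181 wild-type UMIs. Hist1h4i, at 41.3 and 43.0 CPM in the epithelium-like cells and 37.1 and 36.8 in the endocrine-like ones, was level in both. In all, 6 of 19 histone genes tested were lower by at least 1 in the epithelium-like cells (0.695% of all genes), 3 of 12 in the mesenchyme-like cells (0.258%), 5 of 9 in the endocrine-like cells (0.183%) and 2 of 6 in cluster 1 (1.56%).

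**Figure D2:**
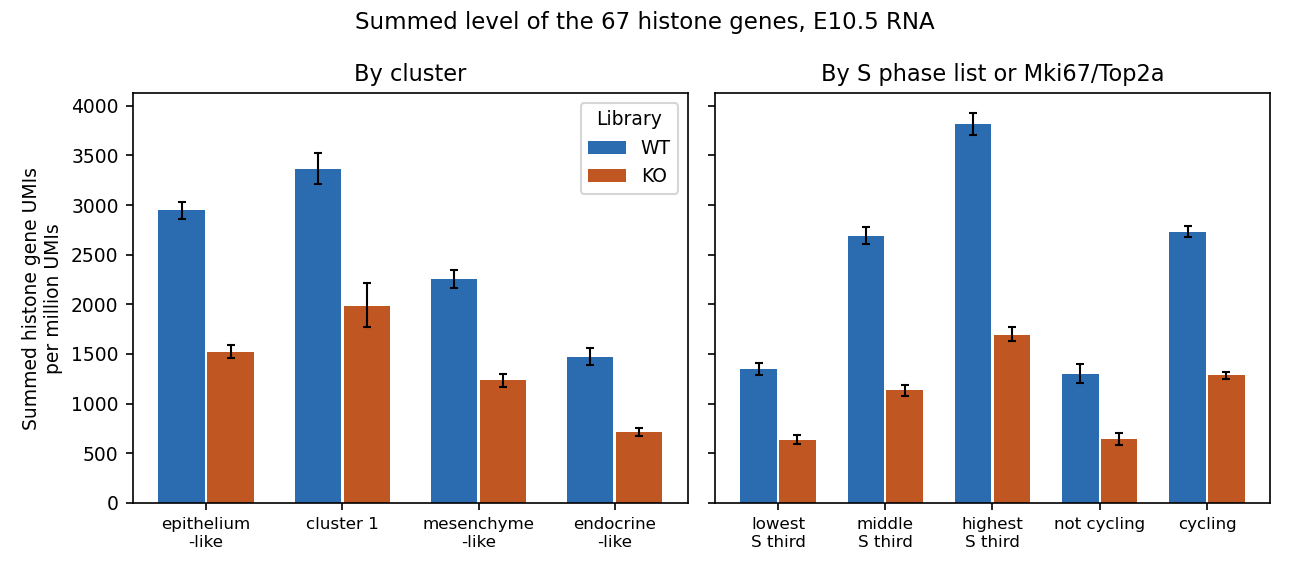
Summed level of the 67 histone genes in CPM (bars from 0, with 95% counting intervals) in the wild-type (WT) and enhancer-deleted (KO) libraries, by cluster on the left and by S phase part and cycling state on the right. In each group the WT bar is the taller, and the sum goes from 1349 to 3813 across the S phase parts in the WT library.

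Transcript length moved with the genotype difference across the whole library. Among genes other than the histones with a longest coding transcript under 600 bases (GENCODE M21), 77 of 90 were lower in the enhancer-deleted cells, with a median log2 ratio of -0.51. The median was -0.07 for 169 genes of 600 to 800 bases, 0.08 for 263 genes of 800 to 1000 bases, and 0.13 for 5495 genes of at least 3000 bases. The 28 histone genes with a log2 ratio had a median of 715.5 bases, against 3206 for the other genes tested. The 10 histone genes under 600 bases had a median of -0.73, with 4 at or under -1, where none of the 90 other genes of that length was. From 1000 to 1500 bases the 4 histone genes had a median of -0.45 with 3 below 0, and the 892 other genes a median of 0.12. The longest annotated transcript of a histone gene can run past the stem-loop, as that of Hist1h4d does for 770 of its 1138 bases. A message cut at the stem-loop would be shorter than the length used here. Which form the UMIs came from was not tested, so the length ranges may not match for the histone genes. Ribosomal protein genes, which are short and encode the ribosome's proteins, had a median of -0.53, and 73 of 79 were lower, Rpl35 the most. Set against the median of the other genes under 600 bases, the log2 ratio of the histone sum was -0.61 in place of -1.12. The length split was chosen after the values were seen, and the part of length in the histone difference was not tested.

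**Figure D3:**
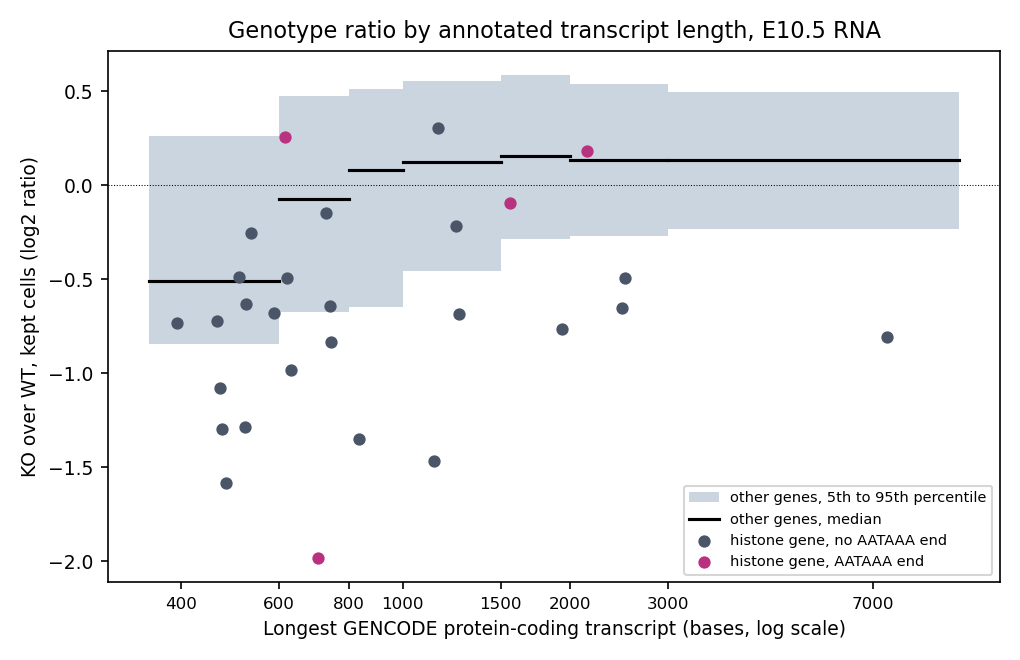
Log2 ratio of enhancer-deleted (KO) over wild-type (WT) E10.5 cells against the length in bases of the longest coding transcript (log axis). Points are histone genes with 50 UMIs, and the bands and lines give the 5th to 95th percentile and the median of all other genes in each length range, with a median of -0.51 under 600 bases and 0.13 from 3000 bases on.

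Other genes had profiles close to that of the histone sum. Over the 8 points given by the 4 clusters in the 2 libraries, the genes with the highest correlation among 5993 included Rpl39 (r = 0.998), Snrpg (0.997), Ubl4a (0.991) and Rpl36a (0.990). Their own log2 ratios of enhancer-deleted over wild type were -0.89, -0.80, -0.44 and -0.84. The 8 points share 2 libraries and are not independent. Pcna, the sliding clamp of DNA replication, had r = 0.82, the replication-independent histone gene H2afz 0.61, and Slbp 0.22.

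Genes that act with the histone genes did not show a difference of that size. The 11 genes of a list of other histone genes, outside these clusters and most of them variants whose supply is less tied to S phase, had a median log2 ratio of 0.08, from -0.48 for H2afj (166 and 117 CPM) to 0.32 for H1fx, and 8 were above 0. H2afz stood at 2286 and 2194 CPM. Of the 17 genes for histone mRNA synthesis and 3′ end processing, 15 had enough UMIs, with a median of -0.03. Slbp, which encodes the stem-loop binding protein, stood at 131 and 128 CPM. The 13 histone chaperone genes had a median of -0.00, with Nasp, a carrier of H3 and H4, lowest at -0.26. Neither direction reached a log2 size of 1 in any of these lists. The 23 genes of an S phase list had a median of -0.22, with 3 above 0 and Hells lowest at -0.63, and all 20 genes of a G2/M list were below 0, with a median of -0.20. In the epithelium-like cells those last 2 medians were 0.11 and 0.14.

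Histone RNA was higher in cells with a sign of the cell cycle. A cell was called cycling if it had a UMI of Mki67 or Top2a, genes of the later part of the cycle, which gave 358 wild-type and 283 enhancer-deleted cycling cells and 93 and 86 others. The histone sum was 2729 CPM in cycling and 1302 in the other wild-type cells, 2.10-fold higher (1.95 to 2.26). In the enhancer-deleted library it was 1283 and 639 CPM, 2.01-fold higher (1.83 to 2.21). The intervals of the 2 ratios overlap, while the levels of the 2 libraries lay 2.13-fold apart in cycling and 2.04-fold apart in the other cells. In the wild type 5 of the 22 histone genes with 50 UMIs were higher by a log2 size of 1, where 1.72% of all genes were, and in the enhancer-deleted library 5 of 13, where 4.59% were. None was lower by that size, where 0.511% and 1.83% of all genes were. The medians were 0.78 and 0.82 for the histone genes and 0.05 and 0.04 for all genes.

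Depth differed between the 2 states, and the call rests on a UMI of either of 2 genes. The median was 7796 UMIs in cycling and 4338 in the other wild-type cells, and 10625 and 8678.5 in the enhancer-deleted library. Among wild-type cells under 3000 UMIs the histone sum was 1958 CPM in cycling and 2107 in the others, so the direction there was the opposite. Between 3000 and 10000 UMIs it was 3127 and 1764 CPM, and above 10000 it was 2687 and 782. The enhancer-deleted cells kept the direction in each range, with 1713 and 972, 1059 and 606, and 1299 and 642 CPM. Thinned to 2000 UMIs each, cycling cells held a mean of 5.99 histone UMIs in the wild type and 3.17 in the enhancer-deleted library, and the others 4.06 and 1.30. Without cluster 1, the wild-type log2 ratio of the sum was 1.68 in place of 1.07.

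Histone RNA was also ordered with an S phase score. Cells were ranked by the summed level of the 23 S phase genes and cut into 3 equal parts. The histone sum was 1349, 2690 and 3813 CPM from the lowest to the highest part in the wild type, 2.83-fold between the ends (2.68 to 2.98). It was 633, 1133 and 1695 CPM in the enhancer-deleted library, 2.68-fold (2.47 to 2.91). Hist1h2ap had a log2 ratio between the ends of 2.07 and 3.22 in the 2 libraries, and Hist1h1b of 2.13 and 3.88. In the wild type 8 of 17 histone genes were higher by a log2 size of 1 against 1.76% of all genes and none was lower (2.89%), and in the enhancer-deleted library 6 of 10 were higher against 7.14%, with 2 of 10 lower against 6.23%. The 2 that were lower were Hist3h2ba and Hist1h2bc.

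The genes differed in how far they followed the cycle. Hist1h2ap had a log2 ratio of cycling over other cells of 1.68 in the wild type and 2.10 in the enhancer-deleted library, and Hist1h1b of 1.26 and 2.91. Hist2h2ac, with 174 UMIs in cycling and 2 in other wild-type cells, had 2.14, and too few UMIs for a value in the enhancer-deleted library. Hist1h1e had 0.61 and 0.82, and Hist1h4i, an H4 gene that barely differed between genotypes (45.3 and 39.9 CPM), had 0.36 and 0.81. Hist3h2ba went the other way, with -0.77 and -0.59. Its S phase ratios were -0.96 and -1.20. Hist1h2bc, the 2-exon H2B gene at chr13:23684199-23692908, gave opposite signs in the 2 libraries, 0.79 and -0.52, from 15 and 65 UMIs in the cells not called cycling. By its S phase ratio it was lower in both, with -0.93 and -1.02.

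By class, cycling over other cells was 2.90 and 4.03-fold for H2A, 2.00 and 2.65-fold for H1, 1.95 and 2.52-fold for H4, and 1.75 and 4.48-fold for H3, wild type first. H2B alone was not higher, with 0.952 in the wild type and 0.780 (0.675 to 0.905) in the enhancer-deleted library.

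**Figure D4:**
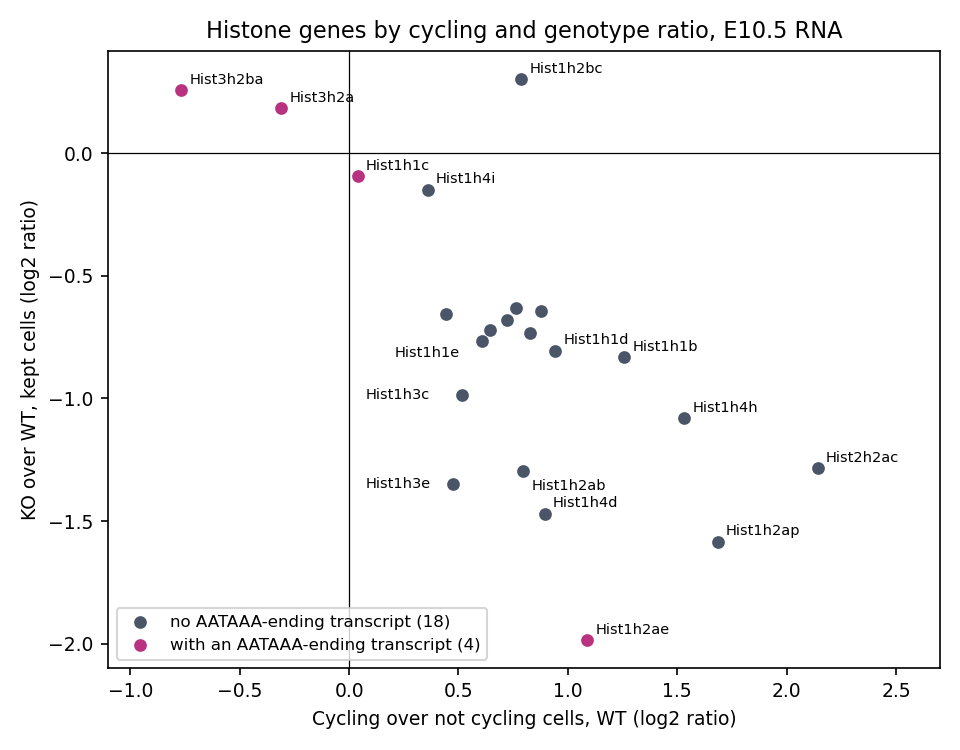
Each point is 1 of 22 histone genes with enough UMIs: its log2 ratio of cycling over other cells in the wild type (horizontal) against its log2 ratio of enhancer-deleted (KO) over wild-type (WT) cells (vertical), coloured by whether a transcript ends with AATAAA. Hist3h2ba and Hist3h2a lie upper left, Hist1h2ap and Hist2h2ac lower right, and the 2 ratios share the wild-type cells.

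As a sum, the 14 genes with an AATAAA-ended transcript had lower ratios between cycling states than the other 53. Their sum in cycling over other cells was 1.2-fold (1.05 to 1.38) in the wild type and 0.854 (0.741 to 0.987) in the enhancer-deleted library. For the rest it was 2.51 (2.29 to 2.74) and 3.19 (2.80 to 3.66). In each library only 4 of the 14 had enough UMIs for a ratio of their own, 2 above and 2 below 0. Across the S phase parts the ratio between the ends was 1.66 and 0.836 for the 14, and 3.28 and 4.58 for the rest. By genotype the sum of the 14 stood at 479 and 286 CPM, 1.67-fold lower in the enhancer-deleted cells (1.56 to 1.80). The rest stood at 2049 and 875 CPM, 2.34-fold lower (2.25 to 2.44). Only 4 of the 14 had the UMIs for a log2 ratio by genotype, 2 above and 2 below 0, with a median of 0.04. Hist1h2ae was the lowest of these at -1.98. By its levels given above, Hist1h2ae alone fell by more CPM than the sum of the 14 did. The lower sum thus rested on Hist1h2ae, and the sum of the others was higher in the enhancer-deleted cells. No counting interval was computed for the sum of the others. The split by annotation was not a clean one. Hist1h2ae belongs to the 14 but had cycling ratios of 1.09 and 1.51 (log2), and Hist1h2bc belongs to the rest. Hist3h2ba and Hist1h2ae were the most abundant of the 14 and went in opposite directions with the cycle.

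Endocrine cells are born from epithelial progenitors as those leave the cell cycle, and histone RNA was lower in the endocrine-like than in the epithelium-like cells. The sum was 1471 against 2945 CPM in the wild type, 2.00-fold lower (1.88 to 2.13), and 713 against 1523 CPM in the enhancer-deleted library, 2.13-fold lower (1.98 to 2.30). The share of cycling cells differed too: 86.6% of wild-type and 97.5% of enhancer-deleted epithelium-like cells were cycling, and 66.7% and 52.2% of endocrine-like cells. Among cycling cells alone the endocrine-like sum was still the lower. It was 1755 against 3174 CPM in the wild type and 802 against 1530 CPM in the enhancer-deleted library. The part of the cycle in the difference was not tested. In the wild type 6 of 16 histone genes were lower by a log2 size of 1 (6.97% of all genes) and 1 was higher (7.79%), and in the enhancer-deleted library 4 of 10 were lower (7.68%) and 1 higher (7.81%). The gene that was higher was Hist3h2ba in the wild type, at 247 against 115 CPM, and Hist1h2bc in the enhancer-deleted library, at 99.8 against 43.0.

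Single genes differed in this too. Hist1h2ap stood at 321 CPM in endocrine-like and 1043 in epithelium-like wild-type cells, and at 75.7 and 444 in the enhancer-deleted library. Hist1h2ae had log2 ratios of -2.14 and -1.42, and Hist1h3c, an H3 gene, of -2.21 in the wild type. Hist1h1b had -0.64 and -2.57, with its wild-type endocrine-like UMIs in few cells as given above. Hist1h1c, with 0.39 and 0.66, was above 0 in both libraries. As a sum, the 14 genes with an AATAAA end had an endocrine over epithelium ratio of 0.726 in the wild type and 1.07 (0.939 to 1.23) in the enhancer-deleted library. The sum of the rest had 0.448 and 0.313 (0.284 to 0.345). Of the 14, only 3 and 4 had enough UMIs for a ratio of their own in the 2 libraries. Among the lists beside them, the S phase genes had medians of -0.78 and -1.21 and the genes for histone mRNA processing of -0.10 and -0.09.

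Malat1 is a long RNA that stays in the nucleus, and its share in a barcode can rise with the share of nuclear RNA. It also differed by cell type here. In the wild type it stood at 22099 CPM in endocrine-like cells, 10447.5 in epithelium-like cells and 2261 in cluster 1. Over all barcodes, cut into 3 equal parts by Malat1 share, the histone sum was 2864, 2430 and 2459 CPM from low to high Malat1 in the wild type and 1426, 1286 and 1073 in the enhancer-deleted library. The log2 ratio of the highest over the lowest part was -0.22 and -0.41, and with cells thinned to 2000 UMIs it was -0.51 and -0.53. Cut into 2 parts, the wild-type value was -0.038. Depth and other RNAs moved with Malat1: the median was 1101.5, 967.5 and 4358.5 UMIs in the wild-type parts, and Gm42418, a locus known to overlap a ribosomal RNA repeat, stood at 28389 CPM in the lowest and 6286 in the highest of them. The S phase genes had median log2 ratios of -0.56 and -0.68 between the same parts. The part of depth, of cell type and of these RNAs in the histone values was not tested.

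Hist3h2ba again stood apart in the Malat1 order. It stood at 55.7, 85.6 and 143 CPM across the wild-type parts and 54.5, 113 and 180 across the enhancer-deleted ones. Its log2 ratios between the ends were 1.22 and 1.56, where 7.13% and 7.56% of all genes were higher by at least 1. It was the single histone gene past that size upward, of 21 and 13 tested. Hist1h2ae had -1.03 in the enhancer-deleted library, at 122, 56.8 and 54.7 CPM, the single one past it downward (0.563% and 1.47% of all genes in the 2 libraries).

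Histone UMIs were spread unevenly over cells. The 10% of cells with the most held 44.9% of the histone UMIs in the wild type and 42.9% in the enhancer-deleted library. The median cell held 9 and 7, the highest 201 and 119, and 13 and 15 cells held none.

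The promoters of these genes share elements that the names did not use. RefSeq windows from 250 bases before to 50 after the start (GRCm38.p6) were matched for 62 of the 67 genes and searched on both strands. TATAAA, the TATA box, was found in 35 (56.5%, against 13.6% of all 32851 promoters), and CCAAT, the box bound by NF-Y, in 53 (85.5% against 37.4%). All H1, H2A, H2B and H3 genes matched had CCAAT, but only 3 of 12 H4 genes did. ATTTGCAT, the octamer bound by POU factors, was in 14 (22.6% against 1.74%), of which 7 were H2A and 7 were H2B genes. AAACACA, an element of H1 promoters, was in 9 (14.5% against 7.18%), with 5 of the 6 H1 genes among them. TTTCGCGC, an E2F site, was in 9 (14.5% against 0.323%), and TTTGGCGC in none (0.514%). Some H2A and H2B genes lie side by side on opposite strands, so 1 site can fall in the windows of both. Hist1h2ag, for example, starts at chr13:22042944 on the minus strand and Hist1h2bj at chr13:22043214 on the plus strand. Shared sites were counted for each gene, so the genes are not independent in these counts and shares. A match of letters is a description of the window and not evidence of binding.

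The promoters of 3 genes are printed as examples of different patterns in RNA: Hist1h1b (high in S phase), Hist1h4d (an H4 gene, lower in the enhancer-deleted cells) and Hist3h2ba (lower in cycling cells). Each is the 250 bases before the RefSeq start, 5′ to 3′ on the gene's strand, with capitals for the matches to the motifs above on either strand.
Hist1h1b, chr13:21780626-21780875, minus strand: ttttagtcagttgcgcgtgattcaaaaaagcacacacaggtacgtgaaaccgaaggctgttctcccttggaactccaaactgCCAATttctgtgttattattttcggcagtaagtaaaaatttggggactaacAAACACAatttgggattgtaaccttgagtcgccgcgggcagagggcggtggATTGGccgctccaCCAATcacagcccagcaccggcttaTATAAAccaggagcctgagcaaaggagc
Hist1h4d, chr13:23581318-23581567, plus strand: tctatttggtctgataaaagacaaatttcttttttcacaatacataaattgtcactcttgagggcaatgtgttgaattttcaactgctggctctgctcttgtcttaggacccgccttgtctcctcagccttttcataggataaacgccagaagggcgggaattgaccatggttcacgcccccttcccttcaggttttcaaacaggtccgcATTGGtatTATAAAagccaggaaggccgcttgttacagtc
Hist3h2ba, chr11:58948661-58948910, plus strand: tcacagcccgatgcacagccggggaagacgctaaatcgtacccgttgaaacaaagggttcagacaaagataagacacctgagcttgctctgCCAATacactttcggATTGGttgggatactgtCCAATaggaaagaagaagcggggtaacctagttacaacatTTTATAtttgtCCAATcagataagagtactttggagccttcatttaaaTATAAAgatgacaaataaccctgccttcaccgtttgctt
All 3 windows hold TATAAA near the start. The Hist1h1b window also holds AAACACA, those of Hist1h1b and Hist3h2ba hold CCAAT on both strands, and that of Hist1h4d holds it on the other strand alone (ATTGG is its reverse complement).

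Accessibility was measured as a deposited signal per gene, scaled to 10000 per nucleus, for which the number of fragments is unknown. Of the 20 histone genes listed, 18 had signal in all 4 libraries, and Hist2h2ac and Hist2h2bb were listed at 0 in all of them. As a group the histone genes had a higher signal than the average gene, with a mean of 2.53 against 1.21 over all genes in the wild-type E10.5 nuclei. The medians were 2.28 and 1.04. Not every histone gene was high: among the 18, percentiles among all genes ran from 9.18 for Hist1h1e to 99.9 for Hist1h4h. The signal summed over the 20 genes was 50.5 at E10.5 (838 nuclei) and 49.6 at E13.5 (2314 nuclei) in the wild type, and 47.5 (700 nuclei) and 39.0 (602 nuclei) in the enhancer-deleted libraries. It was thus level by stage in the wild type and lower at E13.5 in the enhancer-deleted embryos.

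The order of the genes was not that of their RNA. Hist1h4h had the highest signal, 6.31 in wild-type and 6.33 in enhancer-deleted nuclei at E10.5, and 6.52 and 7.07 at E13.5. Hist1h2bj followed with 5.29, 4.73, 5.65 and 4.31, and Hist3h2a with 4.55, 4.75, 3.52 and 3.14. Hist1h2ap, the highest in RNA, stood at 1.47, 1.41, 1.34 and 1.21, and Hist1h1b and Hist1h1e were the lowest named here, at 0.62 and 0.52 in the wild-type E10.5 nuclei. A gene signal also depends on how the authors' tool drew and weighted the gene's window, and the sources used here do not name that tool.

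**Figure D5:**
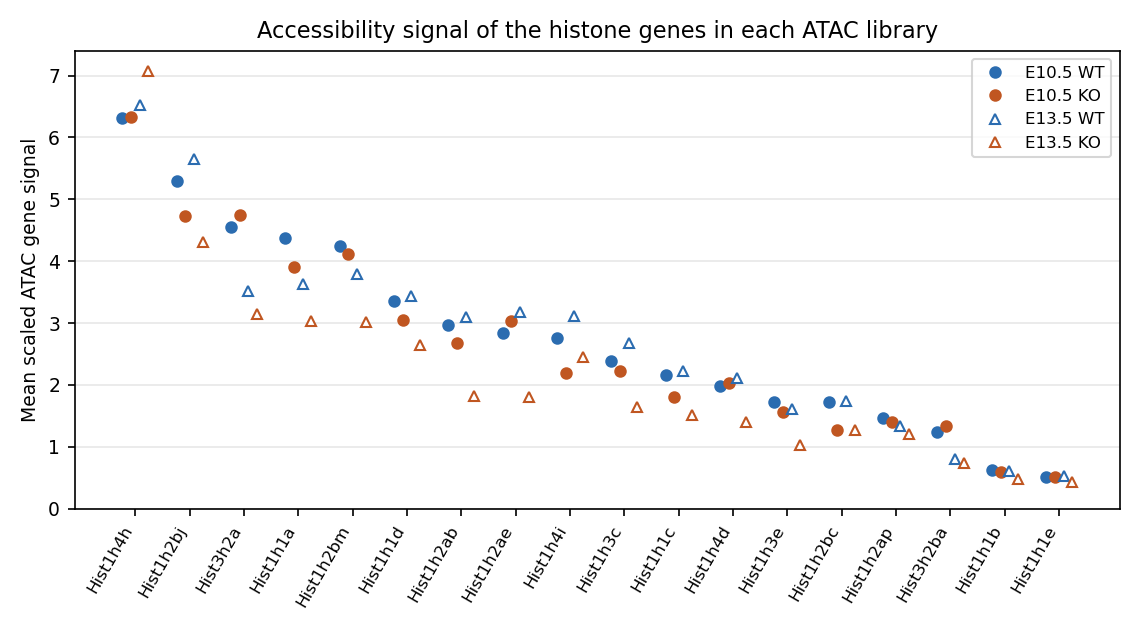
Mean accessibility signal of the 18 histone genes above 0, in units of 10000 per nucleus, at E10.5 and E13.5 for the wild-type (WT) and enhancer-deleted (KO) libraries; each point is 1 library. Most genes are level from E10.5 to E13.5 in the wild type, Hist3h2ba and Hist3h2a are lower at E13.5 in both genotypes, and the enhancer-deleted E13.5 points lie lowest for most genes.

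By stage in the wild type, 11 of the 18 genes were higher at E13.5 and 7 lower, with a median log2 ratio of 0.02 (0.01 over all genes). Only Hist3h2ba was lower by at least 0.5 (4.71% of all genes), at 1.24 against 0.81. In the enhancer-deleted libraries 15 were lower and 3 higher, with a median of -0.34, and 6 were lower by at least 0.5, where 21.4% of all genes were. Hist3h2ba again was among them, with -0.84 after -0.62 in the wild type. Its neighbour Hist3h2a had -0.60 and -0.37 in the same order. Next in the wild type came Hist1h1a, at 4.37 against 3.63, and Hist1h2bm, an H2B gene at 4.24 against 3.79. Hist1h4i was higher at E13.5 in both, by 0.17 and 0.15. Counted as the share of nuclei with signal instead of its mean, the wild-type median was -0.40. The size of 0.5 was chosen after the values were seen.

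The makeup of the libraries moved with the E13.5 difference. Red-cell-like nuclei, in which the sum was 27.9 and 29.3, were 140 of 2314 wild-type and 272 of 602 enhancer-deleted nuclei. Without the endocrine-like and red-cell-like nuclei, the median stage ratio in the enhancer-deleted libraries was 0.044 in place of -0.34. By genotype at E13.5, 17 of 18 genes were lower in the enhancer-deleted library, with a median of -0.36, and 6 were lower by at least 0.5 (16% of all genes). By the share of nuclei with signal that median was 0.20, in the opposite direction. The lowest were Hist1h2ae (3.18 against 1.81; -0.81) and Hist1h2ab (3.10 against 1.82; -0.77), followed by Hist1h3c (2.68 against 1.65; -0.70), Hist1h3e (-0.64) and Hist1h4d (-0.59). Within epithelium-like nuclei at E13.5 the sums were 55.1 and 51.1, the median was -0.12, and none of the 18 was lower by 0.5 (1.26% of all genes) while 1, Hist3h2ba, was higher (1.91%). At E10.5, where RNA was also measured, the median was -0.08 and none reached 0.5 (0.414% of all genes were lower and 0.231% higher by that size). By the share of nuclei with signal that median was 0.083, in the opposite direction.

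Genes lower in RNA by a log2 size of 1 went both ways in accessibility at E10.5. Hist1h2ae stood at 2.84 in wild-type and 3.03 in enhancer-deleted nuclei, Hist1h4d at 1.98 and 2.04, and Hist1h4h at 6.31 and 6.33. Hist1h2ap stood at 1.47 and 1.41, Hist1h3e at 1.73 and 1.57, and Hist1h2ab at 2.97 and 2.68. Of the 18 histone genes, 13 were lower and 5 higher. The log2 ratios of all genes ran only from -0.25 to 0.23 (5th to 95th percentile), so sizes in the 2 readouts are not directly comparable. Over all E10.5 nuclei the largest difference by genotype was that of Hist1h2bc, at 1.73 against 1.27. Its log2 ratio was -0.45 at this stage and again at E13.5, while its RNA was 48.2 and 61.8 CPM at E10.5. The size was not the same in each cluster. At E10.5 Hist1h2bc had -0.23 in the unnamed cluster 0, where Hist1h4i had -0.31. In the unnamed cluster 2 Hist1h2bc stood at 2.10 and 0.87. At E13.5 it had -0.24 in epithelium-like and 0.31 in endocrine-like nuclei. RNA and accessibility came from separate pools of cells, so the 2 readouts were not made in the same cells.

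By cell type, the histone genes were less accessible in endocrine-like nuclei. At E10.5 the sum was 36.6 in endocrine-like and 52.9 in the unnamed cluster 0 of wild-type nuclei, and 34.3 and 49.1 in enhancer-deleted nuclei. The median log2 ratios were -0.51 and -0.57 (-0.03 over all genes in each), and 9 and 13 of 18 genes were lower by at least 0.5 (13.5% and 14.6% of all genes). At E13.5 the wild-type sum was 32.4 in endocrine-like and 55.1 in epithelium-like nuclei, with a median of -0.84 and 15 of 18 genes past 0.5 (6.16% of all genes). The enhancer-deleted median was -0.59, with 11 of 18 past it (16%) from 44 endocrine-like nuclei. Red-cell-like nuclei were lower still, with medians of -1.20 and -1.05 and 17 and 16 of 18 genes past 0.5 (38.9% and 38.6% of all genes). Both the RNA sum and the accessibility sum thus were lower in endocrine-like cells than in the cells they were set against, in both genotypes.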

How the data were processed

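Single-cell RNA was counted in 2 libraries and single-nucleus accessibility in 4, with 1 library in each group, assigned from the sample labels. The deposited RNA files hold raw UMI counts per gene and cell, per the file headers and the values. The deposited accessibility files hold a signal per gene and nucleus that the authors scaled to 10000 in each nucleus. Neither the tool nor the depth behind it is given. The build is mm10, per the submitters' processing notes.

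Counts were summed over cells and expressed per 1000000 UMIs (CPM). Log2 ratios of single genes used CPM plus 10 and needed 50 UMIs in the 2 groups; sums of genes were compared with no pseudocount. Intervals are exact Poisson for levels and exact conditional for ratios, at 95%. Cells needed 1000 genes. Clustering (scanpy 1.11.5, igraph 0.11.9; 2000 variable genes, 30 components, 15 neighbours, Leiden resolution 0.3) left out the histone, S and G2/M genes; clusters were named from marker lists. Scrublet called 2 wild-type and 8 enhancer-deleted cells doublets, which were kept. Accessibility ratios compare mean signals of genes above 0 in at least 10% of nuclei, with a size of 0.5. Stem-loops and motifs were searched in the mm10 genome and RefSeq promoters. Genes named are the most abundant members and those past the sizes given; 1 gene with a profile like theirs is not reported here. The ratio step was tested on simulated data. The members and lists were chosen with earlier results of these data known. Versions: numpy 2.4.6, scipy 1.17.1, pandas 2.3.3.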

Additional observations from a re-analysis of the deposited data

Results flagged for a closer look

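Log2 ratios of 3 genes had opposite signs in 2 groups under the same contrast, and none of these differences was tested, since each group is 1 library. Hist1h2bc was 0.79 for cycling over other cells in the wild type and -0.52 in the enhancer-deleted library. Hist1h1c was 0.65 for the highest over the lowest S phase part in the wild type and -0.62 in the enhancer-deleted library. The accessibility of Hist3h2ba at E13.5, enhancer-deleted over wild type, was 0.73 in epithelium-like nuclei and -0.60 in endocrine-like nuclei, of which the enhancer-deleted library had 44.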

How the results depend on the processing

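Of 105 alternatives, 95 were planned, 54 left the value in place, 48 moved it and 3 turned its direction; all 32 values for histone RNA by genotype stayed below 0. Values are log2 ratios, and for those that moved or turned the cause was not tested. Cycling over other cells was 1.07 in the wild type and became 0.72 with all barcodes, 1.62 with 2000 genes per cell, 0.56 thinned, 0.78 needing both genes, 0.91 with the upper S phase part, 0.81 without Hist1h2ap, 1.68 without cluster 1, 1.78 above 10000 UMIs and -0.11 under 3000; in the enhancer-deleted library 1.00 became 0.72 with all barcodes, 1.29 thinned, 0.74 without Hist1h2ap and 0.82 under 3000 UMIs. Endocrine-like over epithelium-like was -1.0 in the wild type and became -0.71 with 2000 genes, -1.23 thinned, -0.89 at resolution 0.5 and -0.73 without Hist1h2ap. In the enhancer-deleted library -1.09 became -1.44 with 2000 genes (4 epithelium-like cells), -1.74 thinned, -1.36 at resolution 0.8 and -0.76 without Hist1h2ap. Genotype over all kept cells was -1.12 and became -1.18 thinned, -1.30 with median-of-ratios scaling, -0.92 without Hist1h2ap and -0.61 against short genes. In cycling cells -1.09 became -0.92 thinned, -1.17 in the upper S phase part, -1.26 with median-of-ratios, -0.90 without Hist1h2ap and -0.56 against short genes. In epithelium-like cells -0.95 became -0.23 with 2000 genes (4 enhancer-deleted cells), -0.62 thinned, -0.64 at resolution 0.8, -1.14 with median-of-ratios, -0.82 without Hist1h2ap and -0.39 against short genes. The count of 7 genes became 18 with a pseudocount of 1, for which the share over all genes is not given here. By Malat1 the wild-type -0.22 became -0.038 in 2 parts and -0.51 thinned, and the enhancer-deleted -0.41 became -0.53 with 1000 genes, -0.53 thinned and -0.26 without Hist1h2ap. For accessibility, the wild-type stage median of 0.02 became -0.40 by share of nuclei above 0 and 0.13 without the endocrine-like and red-cell-like nuclei; the enhancer-deleted -0.34 became -0.47 in the middle 80% of nuclei, -0.51 in nuclei of 3000 to 6000 genes and 0.044 without those nuclei; genotype at E10.5, -0.08, became 0.083 by share; and at E13.5 -0.36 became 0.20 by share, -0.51 at 3000 to 6000 genes and -0.11 without those nuclei. The comparisons relative to short genes, without cluster 1 and by UMI range were chosen after seeing the data. With all barcodes no epithelium-like cluster formed, so 3 values could not be had. No paired analysis was possible because each group is 1 library, and for the same reason no replicate could be left out. Counting error limits genes under 50 UMIs, and the depth behind the accessibility signal is unknown.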
